A study of Mus musculus with 4 samples.

Results

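Sperm and their precursors use their own versions of several glycolytic enzymes, and the 10 genes described here are 7 such germ-cell isozyme genes with 3 somatic partners. The germ-cell group is Hk1, Aldoart1, Gapdhs, Pgk2, Eno4, Ldhc and Pdha2, and the somatic group is Ldha, Pgk1 and Pdha1. They were chosen by name, and all 10 were found among the 22073 genes of the deposited table. Messenger RNA was measured by poly(A) RNA sequencing in the right testis of mature male mice of the KM strain. In the 2 hemicastrated mice the left testis had been taken out before puberty, and 2 control mice had a sham operation instead. No genotype, transgene or drug is given for either group, and all 4 animals were sampled at maturity, with no age stated. The protocol text speaks of 3 mice a group, whereas the labels and the design text give 2, so p-values measure the spread between these 4 libraries. The molecule is labelled as genomic DNA, but the extraction described is of RNA, which is how the table was taken.

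Glycolysis turns glucose into pyruvate, which lactate dehydrogenase interconverts with lactate and the pyruvate dehydrogenase complex feeds into the mitochondrion. In the testis, Sertoli cells supply lactate to germ cells, and sperm rely on glycolytic enzymes anchored along the fibrous sheath of the tail. Some of the germ-cell enzymes are encoded by retrogenes, intronless copies of an older gene. Pgk2 and Pdha2 are autosomal retrogenes of the X-linked Pgk1 and Pdha1, and the X chromosome is silenced in spermatocytes during meiosis.

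The coding sequences show how far each germ-cell gene can be told from its partner by sequencing. The stretches below are taken from the main GENCODE M21 transcript of each gene, 5′ to 3′, with capitals at the bases that differ within a pair. In Pgk2 (chromosome 17) and Pgk1 (chromosome X), coding bases 1 to 90 hold 23 differences.
Pgk2: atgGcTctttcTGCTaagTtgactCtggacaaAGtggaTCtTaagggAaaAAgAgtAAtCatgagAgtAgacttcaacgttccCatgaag
Pgk1: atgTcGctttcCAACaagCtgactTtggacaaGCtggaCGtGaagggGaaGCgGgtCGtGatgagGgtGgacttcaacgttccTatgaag
In Ldhc and Ldha (both chromosome 7), coding bases 1 to 90 hold 28 differences.
Ldhc: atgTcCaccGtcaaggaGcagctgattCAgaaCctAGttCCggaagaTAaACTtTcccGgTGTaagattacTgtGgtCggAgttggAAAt
Ldha: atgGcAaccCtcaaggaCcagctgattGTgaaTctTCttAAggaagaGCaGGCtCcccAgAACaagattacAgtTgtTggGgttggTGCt
In Aldoart1 (chromosome 4) and Aldoa (chromosome 7), coding bases 1 to 90 hold 8 differences.
Aldoart1: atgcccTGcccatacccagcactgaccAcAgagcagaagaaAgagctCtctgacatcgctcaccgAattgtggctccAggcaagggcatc
Aldoa: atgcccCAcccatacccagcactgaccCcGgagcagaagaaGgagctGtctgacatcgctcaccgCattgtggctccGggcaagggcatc
In Pdha2 (chromosome 3) coding bases 26 to 115 align without a gap to coding bases 23 to 112 of Pdha1 (chromosome X), with 38 differences.
Pdha2: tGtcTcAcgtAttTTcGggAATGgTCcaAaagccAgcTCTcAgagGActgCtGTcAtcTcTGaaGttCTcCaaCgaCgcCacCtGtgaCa
Pdha1: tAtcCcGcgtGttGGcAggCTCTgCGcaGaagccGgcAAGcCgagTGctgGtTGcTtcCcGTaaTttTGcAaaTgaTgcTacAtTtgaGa

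Over the whole aligned coding sequence, Ldhc and Ldha were identical at 73.7% of bases, Pdha2 and Pdha1 at 75.6% and Pgk2 and Pgk1 at 79.3%. The longest run of identical bases in each of these 3 pairs was 20, 20 and 22, shorter than the 50-base words used here as a measure of shared sequence. Aldoart1 and Aldoa were identical at 94.2%, with an identical run of 86 bases. Any fragment lying wholly within that run could not be assigned to either gene by sequence. Beyond the partner, Ldhc, Pgk2, Pdha2 and Hk1 had 0 of their 50-base words in another annotated gene. For Gapdhs the share was 2.81% (with Tmem147os), for Eno4 4.69% (with Hspa12a) and for Aldoart1 5.8% (with 8 genes, Aldoa and Aldoart2 among them).

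The somatic partners shared more of their sequence with other genes. Of the 50-base words of Pgk1, 68% also occur in 5 annotated pseudogenes. The share was 17.1% for Ldha, with 14 pseudogenes, and 16.9% for Pdha1, with Map3k15 and the annotated gene 4930519F09Rik. Gapdh, the somatic counterpart of Gapdhs, shared 82.5% of its words with 222 other annotated genes, of which 213 are pseudogenes. No source used here says how fragments matching several places were counted, so the levels of Pgk1 and Gapdh are uncertain, and ratios to them may overstate the germ-cell isozyme.

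**Figure D1:**
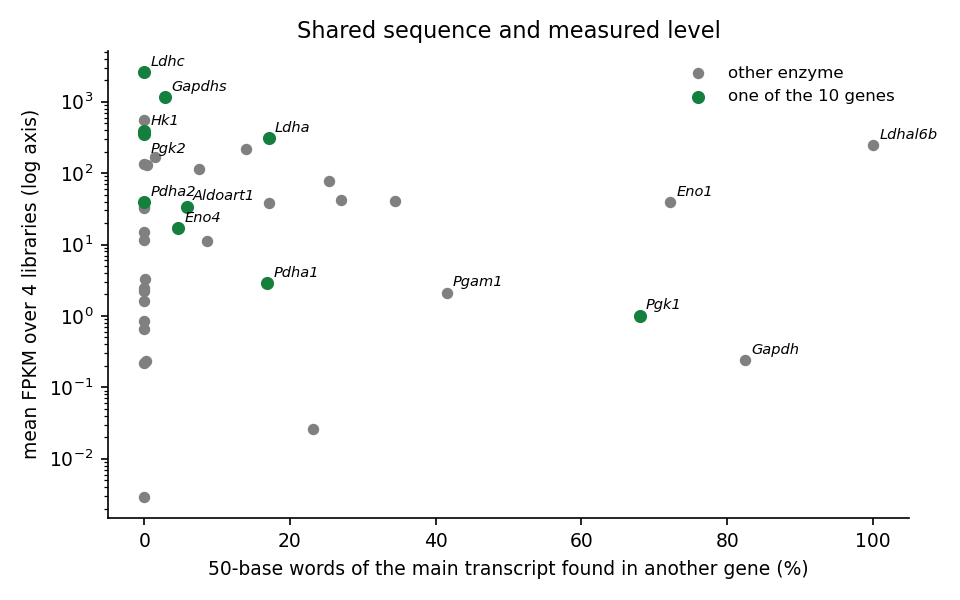
Each point is a glycolytic, lactate or pyruvate enzyme gene, or a gene of another germ-cell enzyme linked to the pathway. The x axis is the percentage of 50-base words of the gene's main transcript that also occur in another annotated gene. The log y axis is the gene's mean FPKM over 4 libraries. Ldhc, Pgk2, Pdha2 and Hk1 lie at 0, while Pgk1 (68%) and Gapdh (82.5%) lie far to the right at mean levels of 1.01 and 0.239 FPKM.

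The values are FPKM, fragments scaled to transcript length and to the mapped fragments of the library, so levels of different genes can be set side by side. Read depth is unknown. Summed FPKM was 343105 and 353135 in the hemicastrated libraries and 346632 and 344316 in the controls. Testis identity was plain from the protamine gene Prm1, which packs sperm DNA, at 5732 and 6458 FPKM in hemicastrated mice and 5802 and 5995 FPKM in controls. The libraries of the 2 groups also differed in genes of other tissues: the summed level of 13 epididymis markers was 5.24 and 6.67 FPKM in hemicastrated mice against 786 and 1121 FPKM in controls. Of the 13, 5 were tested, and 3 were listed at 0 in all 4 libraries. Of the 5 tested, 4 fell and 0 rose, where 1.19% of all 11343 tested genes fell. Crisp1, Adam7 and Defb9 reached the mean of 1 FPKM needed for the test only through the controls. Their falls are therefore not independent of that filter. Crisp1, a secreted sperm-coating protein, was at 0.0453 and 0.0391 FPKM in hemicastrated mice and 545 and 786 FPKM in controls, and Spink8, a Kazal-type protease inhibitor, at 3.19 and 4.45 FPKM against 206 and 298 FPKM in controls. The summed level of 10 myoid and smooth muscle markers was 234 and 263 FPKM against 355 and 314 FPKM in controls. Actg2, which was not called, alone held 183.5 and 209.3 FPKM of this against 218.7 and 213.2 FPKM in controls. Of the 9 tested markers in this list, 5 fell. Among these 5, Cnn1 likewise reached the needed mean only through the controls. A whole-tissue level cannot tell fewer cells of a type from less RNA per cell.

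Germ-cell isozymes were among the most abundant messages of the testis. Ldhc, which encodes the lactate dehydrogenase of spermatocytes, spermatids and sperm (chromosome 7, 46861203 to 46878142, plus strand, GRCm38), ranked 5 and 5 among all genes in the hemicastrated libraries and 5 and 6 in the controls. Its level was 2504 and 2891 FPKM in hemicastrated mice and 2503 and 2549 FPKM in controls. Hemicastrated 2 was above the other 3 libraries, and the groups overlapped. Ldhc lies 5575 bases downstream of its somatic neighbour Ldha. Gapdhs (chromosome 7, 30729775 to 30743681, minus strand), the glyceraldehyde-3-phosphate dehydrogenase of the sperm fibrous sheath, was at 1080 and 1126 FPKM in hemicastrated mice and 1229 and 1177 FPKM in controls. Both hemicastrated values lay below both control values, by a small margin.

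Hk1 and Pgk2 came next, at levels that overlapped each other. Hk1 (chromosome 10, 62268855 to 62379908, minus strand) encodes hexokinase 1, which phosphorylates glucose, and spermatogenic cells make their own forms from alternative first exons of the same gene. The table has 1 value per gene, so germ-cell and somatic Hk1 forms are added together. Hk1 was at 374 and 403 FPKM in hemicastrated mice and 409 and 347 FPKM in controls, where the controls enclosed both hemicastrated values. Pgk2 (chromosome 17, 40207015 to 40208640, minus strand), the phosphoglycerate kinase of meiotic and later germ cells, was at 371 and 348 FPKM in hemicastrated mice and 327 and 356 FPKM in controls, and the groups overlapped.

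The remaining germ-cell isozymes were lower in level. Pdha2 (chromosome 3, 141210004 to 141212355, minus strand), the E1 alpha subunit of pyruvate dehydrogenase in germ cells, was at 38.6 and 38.6 FPKM in hemicastrated mice and 40.4 and 38.4 FPKM in controls. Both hemicastrated values lay between the 2 controls. Aldoart1 (chromosome 4, 72850583 to 72852634, minus strand), an aldolase retrogene, was at 33.1 and 35.8 FPKM in hemicastrated mice and 32.2 and 35.4 FPKM in controls, and the groups overlapped. Eno4 (chromosome 19, 58943425 to 58971421, plus strand), the enolase needed for sperm tail structure and glycolysis, was at 15.7 and 16.9 FPKM in hemicastrated mice and 13.7 and 22.1 FPKM in controls. Both hemicastrated values lay between the 2 controls.

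The 3 somatic partners differed widely in level from each other. Ldha (chromosome 7, 46841475 to 46855627, plus strand), lactate dehydrogenase A of muscle and many other tissues, was at 310.1 and 311 FPKM in hemicastrated mice and 311 and 294 FPKM in controls. It was thus nearly as abundant as Pgk2, though all 4 Ldha values lay below all 4 Pgk2 values. Pdha1 (chromosome X, 160122209 to 160138413, minus strand), the somatic E1 alpha subunit, was at 2.07 and 2.5 FPKM in hemicastrated mice and 3.11 and 3.87 FPKM in controls. Pgk1 (chromosome X, 106187100 to 106203699, plus strand), the somatic phosphoglycerate kinase, was at 0.946 and 0.678 FPKM in hemicastrated mice and 1.33 and 1.1 FPKM in controls. For Pdha1 and for Pgk1 both hemicastrated values were below both controls. In the order Ldhc, Gapdhs, Hk1, Pgk2, Ldha, Pdha2, Aldoart1, Eno4, Pdha1 and Pgk1, Hk1 and Pgk2 were the only neighbours whose library values overlapped.

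**Figure D2:**
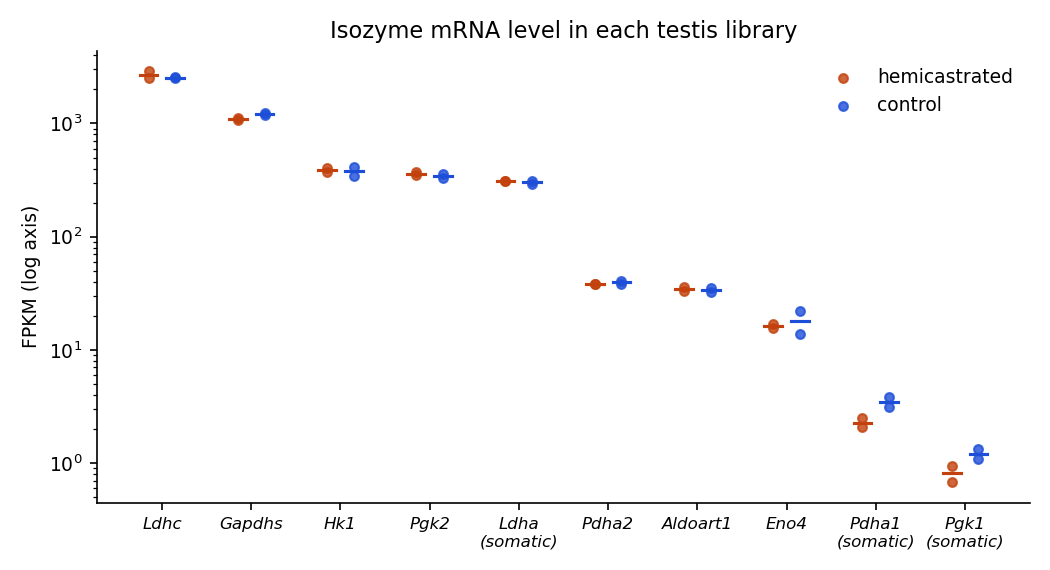
FPKM of the 10 genes (log axis) in each library. Points are single libraries and short bars the mean of 2, with hemicastrated left of control for each gene. The 7 germ-cell isozymes and Ldha sit at about the same height in both groups, while both hemicastrated points of Pdha1 (2.07 and 2.5 FPKM) and Pgk1 (0.946 and 0.678 FPKM) lie below the controls.

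The 10 genes together took 1.38% and 1.47% of the summed FPKM in hemicastrated mice and 1.41% and 1.4% in controls. Ldhc alone took 0.73% and 0.819% in hemicastrated mice and 0.722% and 0.74% in controls. By Euclidean distance of log2(FPKM + 1) over the 4 libraries, the tested genes nearest to Ldhc were Gstm5 (distance 0.509) and Guk1 (distance 1.24). Those nearest to Pgk2 were Dnajb3 (distance 0.144) and Aamp (distance 0.158). With 4 libraries this likeness reflects level more than pattern.

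Set within their enzymatic steps, Gapdhs, Pgk2, Ldhc and Pdha2 supplied most of the message of theirs, as did Hk1, whose value holds germ-cell and somatic forms together. Ldhc made up 81.1% and 82.3% of the summed FPKM of Ldha, Ldhb, Ldhc and Ldhal6b in hemicastrated mice and 80.6% and 81.8% in controls. Ldha made up 8.86% to 10.04% of this sum over the 4 libraries, and the remainder was mostly Ldhal6b, another germ-cell lactate dehydrogenase gene. All 50-base words of Ldhal6b also occur in the annotated gene Gm29050, so its level is uncertain. The lactate dehydrogenase shares overlapped between the groups for Ldhc and for Ldha.

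Pdha2 made up 94.9% and 93.9% of E1 alpha message in hemicastrated mice and 92.8% and 90.8% in controls, with no overlap (difference 2.57 percentage points, two-sided exact permutation p = 0.33). That p is the smallest that 2 libraries against 2 can give. Pgk2 made up 99.8% and 99.8% of phosphoglycerate kinase message in hemicastrated mice and 99.6% and 99.7% in controls, again without overlap (exact permutation p = 0.33). An autosomal pair, the phosphoglycerate mutases Pgam2 and Pgam1, had no overlap either (exact permutation p = 0.33). Pgam2 made up 99.67% and 99.72% in hemicastrated mice and 99.48% and 99.57% in controls, and 41.5% of the words of Pgam1 also occur in pseudogenes. Hk1 made up 99.0% and 99.3% of hexokinase message in hemicastrated mice and 99.2% and 99.2% in controls. Gapdhs stood at 99.97% to 99.99% beside Gapdh over the 4 libraries. The shares of Pgk2 and Gapdhs rest on partners whose sequence is mostly copied in pseudogenes.

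At the aldolase and enolase steps the germ-cell member held the smaller part. Aldoart1 made up 9.22% and 9.35% of aldolase message in hemicastrated mice and 7.76% and 8.96% in controls, without overlap (exact permutation p = 0.33). With Aldoart2, a second aldolase retrogene, the share was 41.7% and 44.8% in hemicastrated mice and 40.1% and 43.1% in controls, where the groups overlapped. Aldoa, the general aldolase, which germ cells also transcribe, held 57.5% and 54.5% in hemicastrated mice and 58.8% and 56.3% in controls. Eno4 made up 22.5% and 22.8% of enolase message in hemicastrated mice and 20.02% and 29.7% in controls. Eno1, the widespread enolase, held 57.3% and 56.4% in hemicastrated mice and 58.2% and 49.0% in controls, and 72.2% of its words also occur in other genes.

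**Figure D3:**
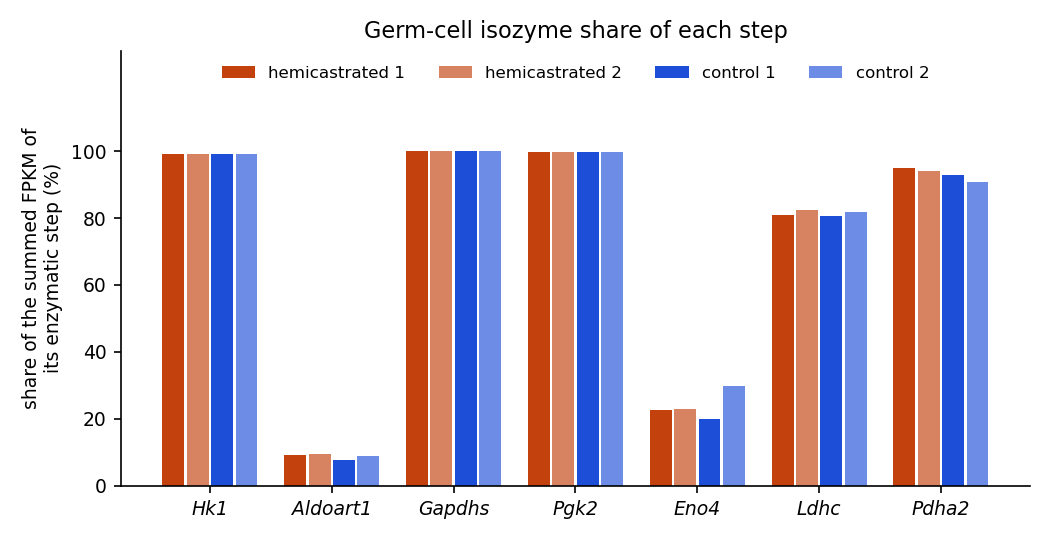
Bars give, for each library, the percentage of the summed FPKM of an enzymatic step that comes from the named germ-cell isozyme; hemicastrated libraries stand left of control libraries. Hk1, Gapdhs, Pgk2 and Pdha2 exceed 90% in each library, Ldhc is near 81%, and Eno4 (20.02% to 29.7%) and Aldoart1 (7.76% to 9.35%) are the smaller part.

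The main comparison asks whether the remaining testis of a hemicastrated mouse carries these messages at another level than the testis of a sham-operated mouse. None of the 10 genes passed the test. All 10 reached the mean of at least 1 FPKM needed for it. Pgk1 did so barely, at 1.01 FPKM, and only through the controls (mean 1.21 FPKM, against 0.812 FPKM in hemicastrated mice). Of the 10, 0 passed an adjusted p under 0.05 in limma, where 1.3% of 11343 tested genes did (0.106% rose and 1.19% fell). At an unadjusted p under 0.05 the count was 1 of 10, against 10.5% of all tested genes. Log2 fold changes lay above 0 for 4 germ-cell isozymes and below 0 for 3, with a median of 0.03, beside -0.03 for all tested genes. In 3 of the 10 (Gapdhs, Pgk1 and Pdha1) the hemicastrated values lay wholly below the controls, which also holds for 24.8% of all tested genes, and in 0 of the 10 wholly above, against 16.3% of tested genes (41.2% in either direction).

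The intervals limit how large a change could have gone unseen. Fold changes are hemicastrated over control on the FPKM + 1 scale, which understates those of Pgk1 and Pdha1. For Ldhc the log2 fold change was 0.09 (SE 0.1), with a 95% interval of 0.908-fold to 1.249-fold. For Pgk2 the value was 0.08, with an interval of 0.915-fold to 1.22-fold. For Gapdhs it was -0.12, with an interval of 0.805-fold to 1.04-fold, and the limma adjusted p was 0.65. The interval ran from 0.847-fold to 1.13-fold for Pdha2, from 0.863-fold to 1.2-fold for Aldoart1 and from 0.866-fold to 1.23-fold for Hk1. It was widest for Eno4, at 0.662-fold to 1.33-fold. For all 7 germ-cell isozymes and Ldha the 95% interval excluded a 2-fold change in either direction. For Pgk1 and Pdha1, where the added 1 FPKM is large beside the level, a 2-fold fall in FPKM is not excluded, and the group means stood at 0.67-fold and 0.654-fold of the controls.

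Ldha differed little between the groups, with 310.8 ± 0.9 FPKM in hemicastrated mice and 302.1 ± 12 FPKM in controls (SD, n = 2 each). Its log2 fold change was 0.04, with an interval of 0.904-fold to 1.17-fold. Pdha1 averaged 2.28 ± 0.31 FPKM in hemicastrated mice and 3.49 ± 0.54 FPKM in controls (SD, n = 2 each). Its log2 fold change was -0.45 (SE 0.15), which missed the threshold in limma across all tested genes (adjusted p = 0.377). Pgk1 averaged 0.812 ± 0.19 FPKM in hemicastrated mice and 1.21 ± 0.16 FPKM in controls (SD, n = 2 each), a log2 fold change of -0.29 that also missed it (adjusted p = 0.599 in limma). With a pseudocount of 0.1 the log2 fold change of Pgk1 was -0.54, and under quantile normalization it was -0.15. The epididymis and smooth muscle markers that were lower in the same hemicastrated libraries are given above, and their part in the Pdha1 and Pgk1 values was not tested.

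**Figure D4:**
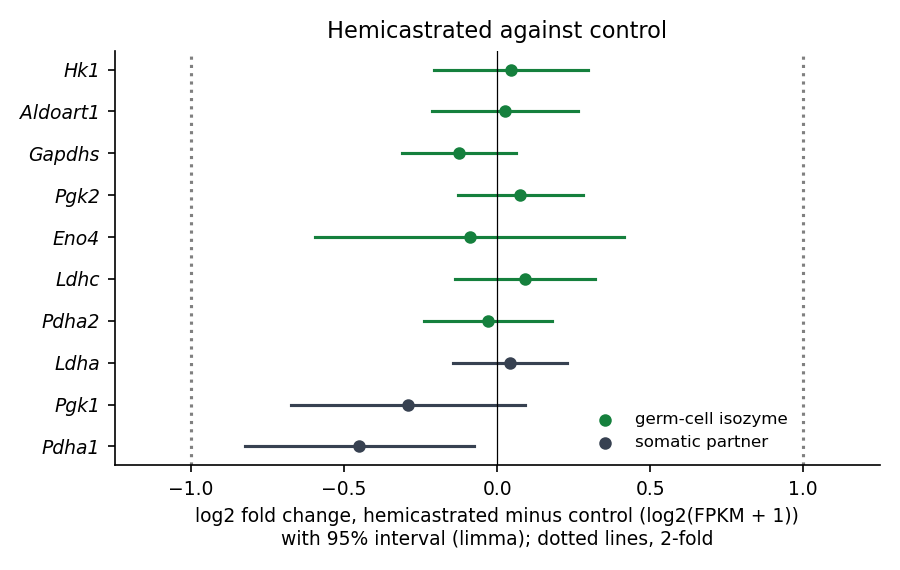
Points show the difference of hemicastrated from control mice in log2(FPKM + 1), and lines its 95% interval from limma; green marks germ-cell isozymes and dark grey somatic partners. Every interval lies within the dotted lines, which mark 2-fold in FPKM + 1 and not in FPKM for the low Pgk1 and Pdha1, and Pdha1 (-0.45) is the farthest from 0.

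Ratios of a germ-cell isozyme to its partner within a library are given as FPKM over FPKM, and differences between groups as log2 ratios with 1 FPKM added to each gene, which for low partners depend on that addition and on the scaling. Ldhc exceeded Ldha 8.07-fold and 9.28-fold in hemicastrated mice and 8.06-fold and 8.68-fold in controls, and the groups overlapped. Pdha2 exceeded Pdha1 18.7-fold and 15.4-fold in hemicastrated mice and 13.0-fold and 9.92-fold in controls. The log2 ratio was 3.59 ± 0.14 in hemicastrated mice and 3.17 ± 0.22 in controls (SD, n = 2 each, difference 0.42, exact permutation p = 0.33). Pgk2 exceeded Pgk1 392-fold and 514-fold in hemicastrated mice and 246-fold and 324-fold in controls. Its log2 ratio was 7.64 ± 0.09 in hemicastrated mice and 7.27 ± 0.19 in controls (SD, n = 2 each, difference 0.37, exact permutation p = 0.33). The difference for Pdha2 and Pdha1 was 0.26 without control 2, and that for Pgk2 and Pgk1 was 0.23 without control 1. Pgk2 and Pdha2 themselves overlapped between the groups, with log2 fold changes of 0.08 and -0.03, while Pgk1 and Pdha1 did not, with -0.29 and -0.45.

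The other pairs moved less or varied more. Aldoart1 stood at 0.16 and 0.172 of Aldoa in hemicastrated mice and at 0.132 and 0.159 in controls, without overlap (log2 difference 0.19, exact permutation p = 0.33), and the difference was 0.06 without control 1 and 0.33 without control 2. Eno4 stood at 0.392 and 0.404 of Eno1 in hemicastrated mice and at 0.344 and 0.606 in controls. Its log2 difference was -0.19, and it was 0.2 without control 2 and -0.58 without control 1. Hk1 exceeded Hk2, the hexokinase of muscle and fat, 153-fold and 210-fold in hemicastrated mice and 171-fold and 169-fold in controls. Gapdh was at only 0.3 and 0.0672 FPKM in hemicastrated mice and 0.248 and 0.341 FPKM in controls, so its ratio to Gapdhs is not interpreted.

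The windows upstream of Pgk2, Pdha2 and their X-linked parents are shown because each pair joins an autosomal retrogene to an X-linked parent whose ratio did not overlap between the groups. Each is the 250 bases before the RefSeq start (GRCm38.p6), 5′ to 3′ on the gene's strand, with capitals at any match to 4 motifs, each searched on both strands. The motifs were the GC box, spelled GGGCGG, the CCAAT box, spelled by its name, the TATA box, spelled TATAAA, and the cyclic AMP response element, spelled TGACGTCA. The windows are chr17:40208610-40208859 (minus strand) for Pgk2, chrX:106186850-106187099 (plus strand) for Pgk1, chr3:141212356-141212605 (minus strand) for Pdha2 and chrX:160138431-160138680 (minus strand) for Pdha1.
Pgk2: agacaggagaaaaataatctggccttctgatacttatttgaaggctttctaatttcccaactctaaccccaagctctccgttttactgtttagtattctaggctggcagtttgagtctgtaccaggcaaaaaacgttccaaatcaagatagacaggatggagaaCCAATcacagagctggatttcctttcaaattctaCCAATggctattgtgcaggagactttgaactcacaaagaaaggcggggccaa
Pgk1: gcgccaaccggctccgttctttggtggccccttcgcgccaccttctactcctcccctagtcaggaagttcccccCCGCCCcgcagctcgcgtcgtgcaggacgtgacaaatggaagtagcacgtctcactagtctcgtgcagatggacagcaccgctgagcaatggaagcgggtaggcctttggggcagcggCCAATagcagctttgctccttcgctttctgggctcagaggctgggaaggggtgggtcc
Pdha2: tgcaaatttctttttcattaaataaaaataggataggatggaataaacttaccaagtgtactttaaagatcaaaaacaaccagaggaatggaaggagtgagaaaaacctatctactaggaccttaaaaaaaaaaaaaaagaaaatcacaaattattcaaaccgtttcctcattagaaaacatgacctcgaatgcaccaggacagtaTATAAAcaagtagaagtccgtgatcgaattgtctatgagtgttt
Pdha1: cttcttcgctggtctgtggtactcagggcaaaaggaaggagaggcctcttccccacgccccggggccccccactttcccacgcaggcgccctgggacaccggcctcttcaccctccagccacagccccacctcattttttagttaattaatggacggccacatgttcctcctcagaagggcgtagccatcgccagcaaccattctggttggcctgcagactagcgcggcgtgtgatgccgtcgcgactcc

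The retrogene windows were poorer in G and C than those of their parents. The share of G and C was 42% for Pgk2 and 62.8% for Pgk1, and 31.6% for Pdha2 and 61.6% for Pdha1, beside a median of 52.4% over 32817 promoter windows of the same length. The number of CG dinucleotides was 3 for Pgk2 and 17 for Pgk1, and 4 for Pdha2 and 15 for Pdha1, where the median window had 6. Pgk2 held 2 CCAAT matches, beginning 86 and 52 bases before the RefSeq start. That start lies 31 bases downstream of the GENCODE start of Pgk2, so the end of the window overlaps the GENCODE gene. Pgk1 held 1 CCAAT match and 1 GC box, and Pdha2 held 1 TATA box match 44 bases before the RefSeq start. None of the listed letters occurred in the Pdha1 window. Of all windows, 33.8% held a CCAAT box, 32.7% a GC box, 12.4% a TATA box and 1.55% the cyclic AMP response element.

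Pgk1 and Pdha1 belong to a wider set of X-linked genes with an autosomal testis retrogene. The counts and medians below include both genes, and those of the retrogenes include Pgk2 and Pdha2. Of 9 tested X-linked parents 0 were called; 6 log2 fold changes were below 0, and their median was -0.14, beside -0.03 for all tested genes. Of 9 tested retrogenes 0 were called; 6 log2 fold changes were above 0, and their median was 0.1. The parents with the highest levels were Cstf2, a polyadenylation factor (log2 fold change -0.02), Cetn2, a centriole protein (log2 fold change 0.09), and then Pdha1 and G6pdx. G6pdx, glucose-6-phosphate dehydrogenase, was at 1.78 and 2.16 FPKM in hemicastrated mice and 3.84 and 3.15 FPKM in controls (log2 fold change -0.6, limma adjusted p = 0.221). Besides Pgk1, Pdha1 and G6pdx, the values of Gk, glycerol kinase, lay wholly below the controls, at 0.892 and 1.56 FPKM against 3.2 and 2.55 FPKM (log2 fold change -0.81, limma adjusted p = 0.19). Utp14a, a factor for ribosome assembly, lay wholly above, at 2.12 and 2.86 FPKM against 1.53 and 1.19 FPKM in controls (log2 fold change 0.56, limma adjusted p = 0.301). Gk and Utp14a were named after their values were seen. The 4 parents wholly below and the 1 wholly above of 9 tested stand beside 24.8% and 16.3% of all tested genes. Pgk1 and Pdha1 are among those 4, so the count is no separate setting for them. Rpl10 did not reach the test. Values wholly below the controls were not limited to X-linked genes. The autosomal phosphoglycerate mutase Pgam1 (log2 fold change -0.29), the kinase Pdk1 (-0.36) and the glucose transporter Slc2a1 (-0.375) also had them. None of these was called, and they were named after their values were seen. Counts in both directions for their lists are given below.

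The retrogenes of these parents were far more abundant at several loci. Gk2, the germ-cell glycerol kinase, was at 173 and 185 FPKM in hemicastrated mice and 155 and 169 FPKM in controls (log2 fold change 0.14, limma adjusted p = 0.639). Cetn1, a germ-cell centrin, was at 190.0 and 202 FPKM in hemicastrated mice and 162 and 177 FPKM in controls (log2 fold change 0.21, limma adjusted p = 0.466). Rpl10l, a ribosomal protein of germ cells, was at 102 and 122 FPKM in hemicastrated mice and 109 and 98.9 FPKM in controls. Its parent Rpl10 shared 85.4% of its 50-base words with 15 other genes, so the level of Rpl10 is uncertain. Retrogenes wholly above the controls were 3 of 9, beside 16.3% of all tested genes, and they were Gk2, Cetn1 and, named after its values were seen, G6pd2 (11.4 and 11.9 FPKM against 10.6 and 10.2 FPKM in controls). Utp14b, the retrogene of Utp14a, was the 1 of 9 wholly below, beside 24.8% of all tested genes, at 1.74 and 1.77 FPKM against 1.96 and 2.54 FPKM in controls, and was likewise named after its values were seen.

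**Figure D5:**
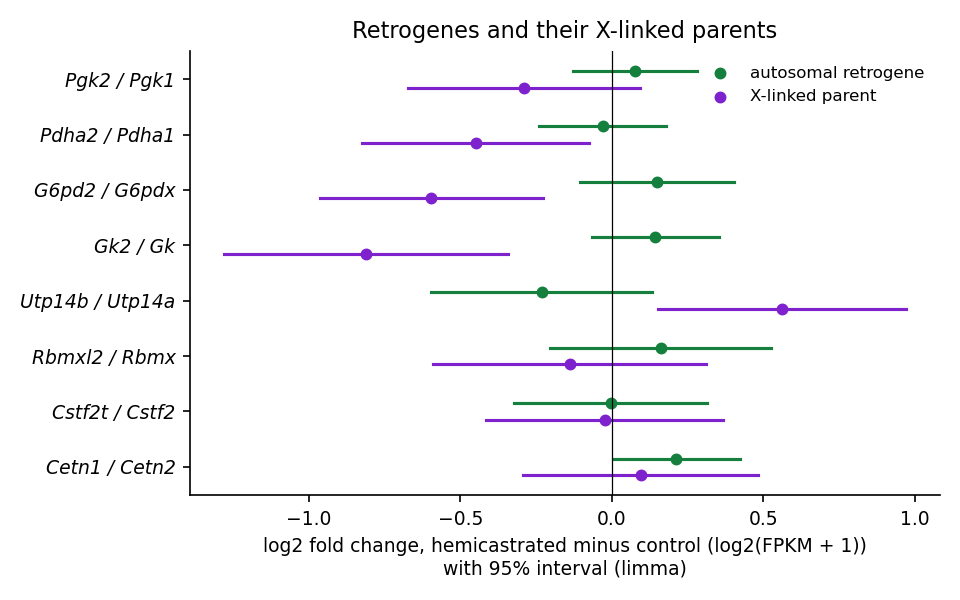
Log2 fold changes, hemicastrated minus control, with 95% intervals from limma, for 8 autosomal retrogenes (green) and their X-linked parents (purple). Parents below 0 include Pgk1 (-0.29), Pdha1 (-0.45), G6pdx (-0.6) and Gk (-0.81), and Utp14a (0.56) lies above 0; none passed the adjusted threshold.

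Other germ-cell enzymes linked to the pathway were also without a call. Of 7 tested, 0 were called; 5 lay above 0 on the log2 scale, around a median of 0.07. Pgam2, the phosphoglycerate mutase of muscle and late germ cells, was at 592 and 586 FPKM in hemicastrated mice and 540.2 and 488 FPKM in controls (log2 fold change 0.2, limma adjusted p = 0.491). Ldhal6b was at 236 and 261 FPKM in hemicastrated mice and 247 and 239 FPKM in controls. Gykl1, a glycerol kinase-like retrogene, was at 134 and 140.5 FPKM in hemicastrated mice and 132 and 128.5 FPKM in controls. In 4 of these 7 the hemicastrated values lay wholly above the controls, namely Pgam2, Gk2, Gykl1 and G6pd2, where 16.3% of all tested genes did.

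Of 22 other glycolytic enzymes 15 were tested and 0 were called, 7 lying above and 8 below 0 on the log2 scale, around a median of -0.02. Among the 15, 4 lay wholly below and 2 wholly above the controls, beside 24.8% and 16.3% of all tested genes. Aldoa was at 206 and 208 FPKM in hemicastrated mice and 244 and 222 FPKM in controls (log2 fold change -0.17, limma adjusted p = 0.565). The triose phosphate isomerase Tpi1 (0.03), the glucose phosphate isomerase Gpi1 (0.02) and the lactate dehydrogenase Ldhb (0.14) had log2 fold changes closer to 0. Of 11 tested genes of the pyruvate dehydrogenase complex and pyruvate import 0 were called, with a median of -0.02. In this list 1 lay wholly below and 1 wholly above the controls, beside 24.8% and 16.3% of all tested genes. The mitochondrial pyruvate carrier Mpc2 was at 255 and 296 FPKM in hemicastrated mice and 275 and 274 FPKM in controls. The log2 fold change was -0.08 for the kinase Pdk2, -0.12 for the E2 subunit Dlat and -0.01 for the E1 beta subunit Pdhb. Of 7 tested regulators of glycolysis 0 were called, with Fbp1 (0.03), Pfkfb3 (-0.08), Pfkfb4 (0.04) and Pfkfb2 (0.1) as the most abundant.

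Among 9 tested lactate and hexose transporters and their chaperones 1 fell and 0 rose, where 1.19% and 0.106% of all tested genes did. Beside 24.8% and 16.3% of all tested genes, 4 of the 9 lay wholly below and 1 wholly above the controls. The called gene was Emb, embigin, a membrane chaperone of monocarboxylate transporters. It was at 5.35 and 4.92 FPKM in hemicastrated mice and 10.1 and 10.7 FPKM in controls (log2 fold change -0.9, SE 0.12, limma adjusted p = 0.0214). Leaving out hemicastrated 2 ended the call (limma adjusted p = 0.0519), as did leaving out control 1 (0.172) or control 2 (0.224) or testing unfiltered genes (0.0685), and 22.2% of its words also occur in the annotated gene Gm17509. The epididymis and smooth muscle markers given above were lower in the same libraries, and their part in the Emb value was not tested. Bsg, basigin, the chaperone of the same transporter class in germ cells, was at 270.0 and 282 FPKM in hemicastrated mice and 275 and 242 FPKM in controls. Slc2a3, the glucose transporter of sperm, was at 396 and 431 FPKM in hemicastrated mice and 502 and 471 FPKM in controls (log2 fold change -0.24, limma adjusted p = 0.397). On the log2 scale the hexose transporter Slc2a5 differed by 0.1 and the monocarboxylate transporter Slc16a7 by -0.04.

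Germ-cell stage markers are set beside the isozymes because their messages come from the same cells. Of 10 round spermatid markers 0 were called. All 10 lay above 0 on the log2 scale, where 43.4% of all tested genes did, around a median of 0.16, and 6 lay wholly above the controls, beside 16.3% of all tested genes. Their summed level was 1114 and 1136 FPKM in hemicastrated mice and 1002 and 992 FPKM in controls. Of 12 elongating spermatid markers, a list that includes Gapdhs, 0 were called, and 5 lay above and 7 below 0 on the log2 scale around a median of -0.02. Beside 16.3% and 24.8% of all tested genes, 2 of the 12 markers lay wholly above and 3 wholly below the controls. Their sums, in which the protamine and transition protein genes weigh most, were 27180 and 27270 FPKM in hemicastrated mice and 25130 and 26230 FPKM in controls. Of 10 pachytene spermatocyte markers 0 were called, 6 lay above and 4 below 0 on the log2 scale, and the median was 0.13. Beside 16.3% and 24.8% of all tested genes, 4 of the 10 lay wholly above and 1 wholly below the controls. Their sums were 1802 and 1877 FPKM in hemicastrated mice and 1873 and 1824 FPKM in controls. Ybx2 alone held 1067 and 1164 FPKM against 1220 and 1165 FPKM of these. The 7 germ-cell isozymes summed to 4416 and 4860 FPKM in hemicastrated mice and 4555 and 4524 FPKM in controls, where the groups overlapped. Sertoli markers summed to 681 and 642 FPKM in hemicastrated mice and 560.0 and 575 FPKM in controls. Of 9 tested Sertoli markers 0 were called, and 6 lay above and 3 below 0 on the log2 scale. Wholly above the controls lay 5 of the 9 and wholly below 2, beside 16.3% and 24.8% of all tested genes. The largest differences were in Cst12 (0.73) and Cst9 (0.67), named after their values were seen. Leydig markers summed to 1936 and 1830 FPKM in hemicastrated mice and 1668 and 1560 FPKM in controls, but Insl3 alone held 1609 and 1484 FPKM against 1272 and 1232 FPKM of this. Of the 9 Leydig markers 0 were called, 4 lay above and 5 below 0 on the log2 scale, and the median was -0.01. Wholly above the controls lay 2 of these 9 and wholly below 2, beside 16.3% and 24.8% of all tested genes.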

How the data were processed

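Per the file headers the authors deposited FPKM per gene and library. TopHat2 2.0.11, Cufflinks 2.2.1 and GRCm38 appear without roles in the submitters' processing notes; no source used here gives the annotation. Libraries came from randomly primed poly(A) RNA with no stated strand marking, per the labels' protocols. FPKM values carry no read counts here, so depth is unknown and no counting interval is given. Symbols were found for 21806 of 22073 identifiers (GENCODE M21, GRCm38).

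Tests covered genes averaging 1 FPKM or more over the 4 libraries, on log2(FPKM + 1), with a pseudocount of 1, by limma 3.58.1 in R 4.3.3 with a variance trend, two-sided, Benjamini-Hochberg adjusted over 11343 genes, with calls at an adjusted p under 0.05. Ratios and shares were compared by exact permutation. The fit was tested on simulated data. Words of 50 bases of each main transcript (APPRIS principal, then longest) were searched in all other GENCODE M21 genes on both strands. Promoter windows came from RefSeq (GRCm38.p6), which matched 9 of the 10 genes and not Aldoart1. No set test was run. The 10 genes, the lists and the alternatives (pseudocount, filter, scaling, trend, robust fit, replicate block, leaving out libraries) were chosen with earlier results of these data known. Beyond the 10 genes, the naming rule took called list members and up to 4 of the most abundant per pathway list, up to 2 per marker list (not all are printed), and the 2 nearest profiles of Ldhc and Pgk2.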

Additional observations from a re-analysis of the deposited data

How the results depend on the processing

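In all 12 alternatives, 0 of the 10 genes were called where they were tested, and the smallest adjusted p was 0.285 (Pdha1 with the replicate block). Pdha1 and Pgk1 did not reach a mean of 5 FPKM. Of 118 fits of the 10 genes 7 changed sign, all with a library left out: Ldhc, Aldoart1 and Hk1 without hemicastrated 2, Pdha2 and Aldoart1 without control 1, and Eno4 and Hk1 without control 2. With a library left out, log2 fold changes ran from -0.013 to 0.195 for Ldhc, -0.039 to 0.092 for Aldoart1, -0.075 to 0.164 for Hk1, -0.065 to 0.006 for Pdha2 and -0.414 to 0.235 for Eno4. The cause was not tested. The count of genes called higher over the whole table, 12, became 3 with no filter, 7 with a mean of at least 5 FPKM, 30 with the replicate block and 0 to 26 with a library left out. Leaving out a library leaves 1 in its group, so those counts are not read as results. The count of genes called lower, 135, became 63 with a mean of at least 5 FPKM, fewer genes being tested, and was 78 to 156 with a library left out, 78 being without control 2. In the transporter list the count of 1 (Emb) became 0 with no filter and was 0 to 1 with a library left out. The log2 difference of Pgk2 to Pgk1 became 0.61 with a pseudocount of 0.1 and 0.19 under quantile normalization, and that of Gapdhs to Gapdh 0.48 with a pseudocount of 0.1. With a library left out the log2 difference ran from -0.051 to 0.151 for Ldhc to Ldha and from -0.108 to 0.236 for Hk1 to Hk2. Same-numbered libraries did not vary together (correlation of deviations over tested genes 0.01), and the labels do not pair them.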
